A study of Glycine max with 54 samples.

Results

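The bZIP transcription factors of soybean (Glycine max) were followed in developing seeds. The members were all genes whose single symbol in the array annotation is BZIP followed by a digit. A gene was measured where a probe set reached a log2 signal of 5 in at least 3 of the 54 arrays, and the probe set with the highest mean stood for it. The annotation held 89 such probe sets for 58 genes. Of these, 66 probe sets of 47 genes passed, among 26482 probe sets tested in all, and the other 11 genes were not tested.

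Developing seeds of the varieties Archer and Minsoy, grown in the field in 2007 and 2008, and of 2 recombinant inbred lines from their cross, alike in maturity and grown in 2007, were hybridised to Affymetrix soybean arrays. Of the recombinant lines 1 was labelled high yield and 1 low yield, and each class was seen in that line alone. Seeds of 3 lengths were taken (2 mm, then 3.5 mm, and last 5-6 mm), with 3 arrays for each line, length and year (18 groups). In 2007 each line stood in a single row from which 3 samples came at each length, so its replicates hold no spread between rows. In 2008 the 3 samples of a group came from 3 plantings, each pooled over 2 rows. The p-values of every set use a single spread per probe set, estimated over all 18 groups. Those of 2007 therefore also draw on the arrays of 2008, and those of the parents on the recombinant arrays. The labels name no treatment and no transgene. The low yield 3.5 mm array with replicate number 3 has a description naming the high yield line, and its title was followed. The study's question, as the design shows, was how seed transcripts differ between lengths and between lines.

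bZIP proteins hold a basic region that contacts DNA and a leucine zipper through which they pair, and many plant members bind sites with an ACGT core. Groups within the family are known for different tasks: AREB/ABF factors act in the response to abscisic acid, the hormone that rises as seeds mature, relatives of Arabidopsis HY5 act in light responses, and membrane-bound members act in the unfolded protein response of the endoplasmic reticulum. In Arabidopsis seeds, bZIP53 and its partners activate storage protein and other maturation genes. For most soybean members named here the files give a number and no role.

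The values are deposited log2 signals, where a difference of 1 is a 2-fold change. Parents of 2007, parents of 2008 and recombinant lines were normalised apart, so levels were compared only within each of these 3 sets of 18 arrays, and levels of different probe sets were not set against each other. A change was called where the adjusted p of limma's test over all 26482 probe sets was under 0.05. In seed RNA, fewer cells of a type and less RNA per cell cannot be told apart.

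The arrays were checked against their labels before the bZIP genes were read. Seed storage and maturation genes marked the lengths: 32 of 35 rose and 1 fell between 2 mm and 5-6 mm in the parents of 2007. Their mean signal ran against the label in 3 arrays. It was 10.23 in the Minsoy 2 mm array of 2008 with replicate number 1, against 4.31 and 4.59 in the others of that group, and 5.06 in Minsoy 5-6 mm replicate 1 of 2008, against 9.65 and 11.07. In the array labelled low yield line 2 mm replicate 1 it was 8.74, against 4.71 and 4.13. That array also had the line score of the high yield line. On 72 probe sets that separated both the parents in both years and the recombinant lines at 3.5 mm, scaled to 0 for the low and 1 for the high yield line, it scored 0.92 where the other 2 mm arrays of its label scored -0.01 and -0.07. The high yield line's 5-6 mm replicate 1 scored 0.15, and the low yield line's 5-6 mm replicates 1 and 3 scored 0.17 and 0.14, while the other arrays lay between -0.07 and 0.02 or between 0.94 and 1.03. RNA quality also differed: the 3′ minus 5′ signal of the actin control was between -0.81 and -0.06 in the parents and between 1.22 and 3.36 in the recombinant lines. It was highest in replicates 1 and 3 of the 3.5 mm recombinant arrays (2.96 to 3.36). Counts of calls, and the values of the genes described most fully, are given with and without these arrays. The 3 arrays were picked for their stage signal, and those apart in line score for that score, after the data were seen. Leaving them out tends to widen differences between lengths or lines by that choice. Values without them are therefore no separate support for a change.

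More bZIP genes were lower than higher in the larger seeds. Of the 47 genes, 20 fell in the parents of 2007 between 2 mm and 5-6 mm (42.6%, against 30.8% of all probe sets) and 9 rose (19.1%, against 22.6%). The median log2 difference was -0.14 over the 47 genes and -0.06 over all probe sets. In the recombinant lines 20 genes fell (24.0% of all probe sets did) and 3 rose (15.3% of all probe sets did), with a median of -0.30 against -0.06. The parents of 2008 had 2 genes that fell (5.18% of all probe sets) and 3 that rose (6.00%), with 21 at an unadjusted p under 0.05 (28.0% of all probe sets were). Without the 3 arrays whose maturation signal ran against the label, 16 fell (19.2%) and 8 rose (15.0%) in 2008, and 25 were called in the recombinant lines (46.8%), 21 of them lower (28.8%). Without the 4 arrays apart in line score, 17 fell (23.3%) and 3 rose (14.1%) in the recombinant lines.

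The direction of a called bZIP gene was never opposite between the 3 sets. With every array kept only 5 were called in 2008, which left little room for opposite calls there. The share of all probe sets with opposite calls was not counted, so no trait of the family is read from this. BZIP70 and BZIP132 rose in all 3 sets (4.92% of all probe sets did), and BZIP16 and BZIP125 fell in all 3 (4.28%). Of these genes, only BZIP125 kept its 2008 call in a fit to the 2008 arrays alone. Without the 3 arrays, 4 genes rose in all 3 sets (10.9% of all probe sets), namely BZIP70, BZIP111, BZIP126 and BZIP132. Those that fell in all 3 then numbered 15 (14.3%): BZIP1, BZIP10, BZIP16, BZIP48, BZIP50, BZIP55, BZIP71, BZIP80, BZIP87, BZIP98, BZIP101, BZIP108, BZIP113, BZIP114 and BZIP125. Taking the mean change of each line and year with no test, 8 genes were positive in all 6 (18.3% of all probe sets) and 20 were negative in all 6 (27.0%). With every array kept, 17 genes were called in no set between 2 and 5-6 mm, BZIP36, BZIP38, BZIP62 and BZIP110 among them. The share of all probe sets called in no set was not counted.

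**Figure D1:**
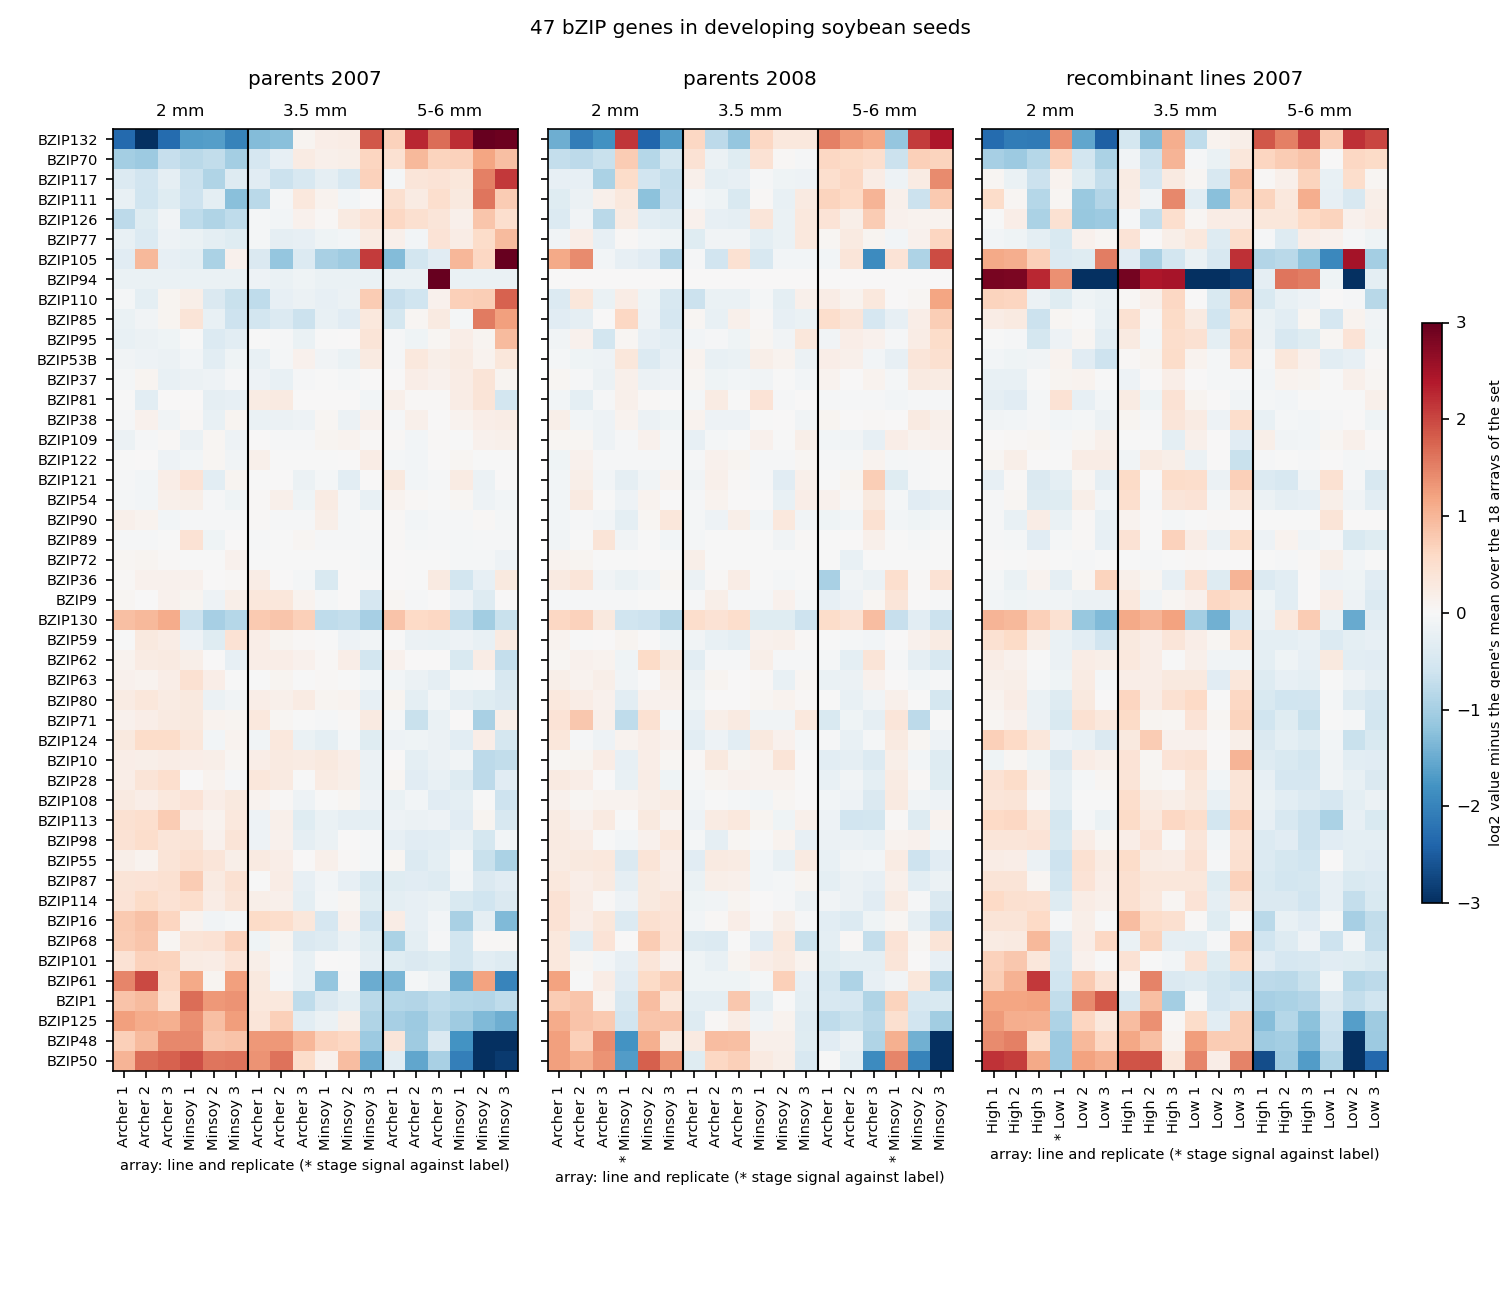
Log2 signal of each of the 47 bZIP genes (rows) in each of the 54 arrays (columns), less the gene's mean over the 18 arrays of its set; colours are cut at 3 and -3. Genes are ordered by their 2007 parental change, and the 3 starred arrays carry colours of another length: the starred Minsoy 2 mm array of 2008 is red for BZIP132 and blue for BZIP50, as the 5-6 mm arrays are.

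**Figure D2:**
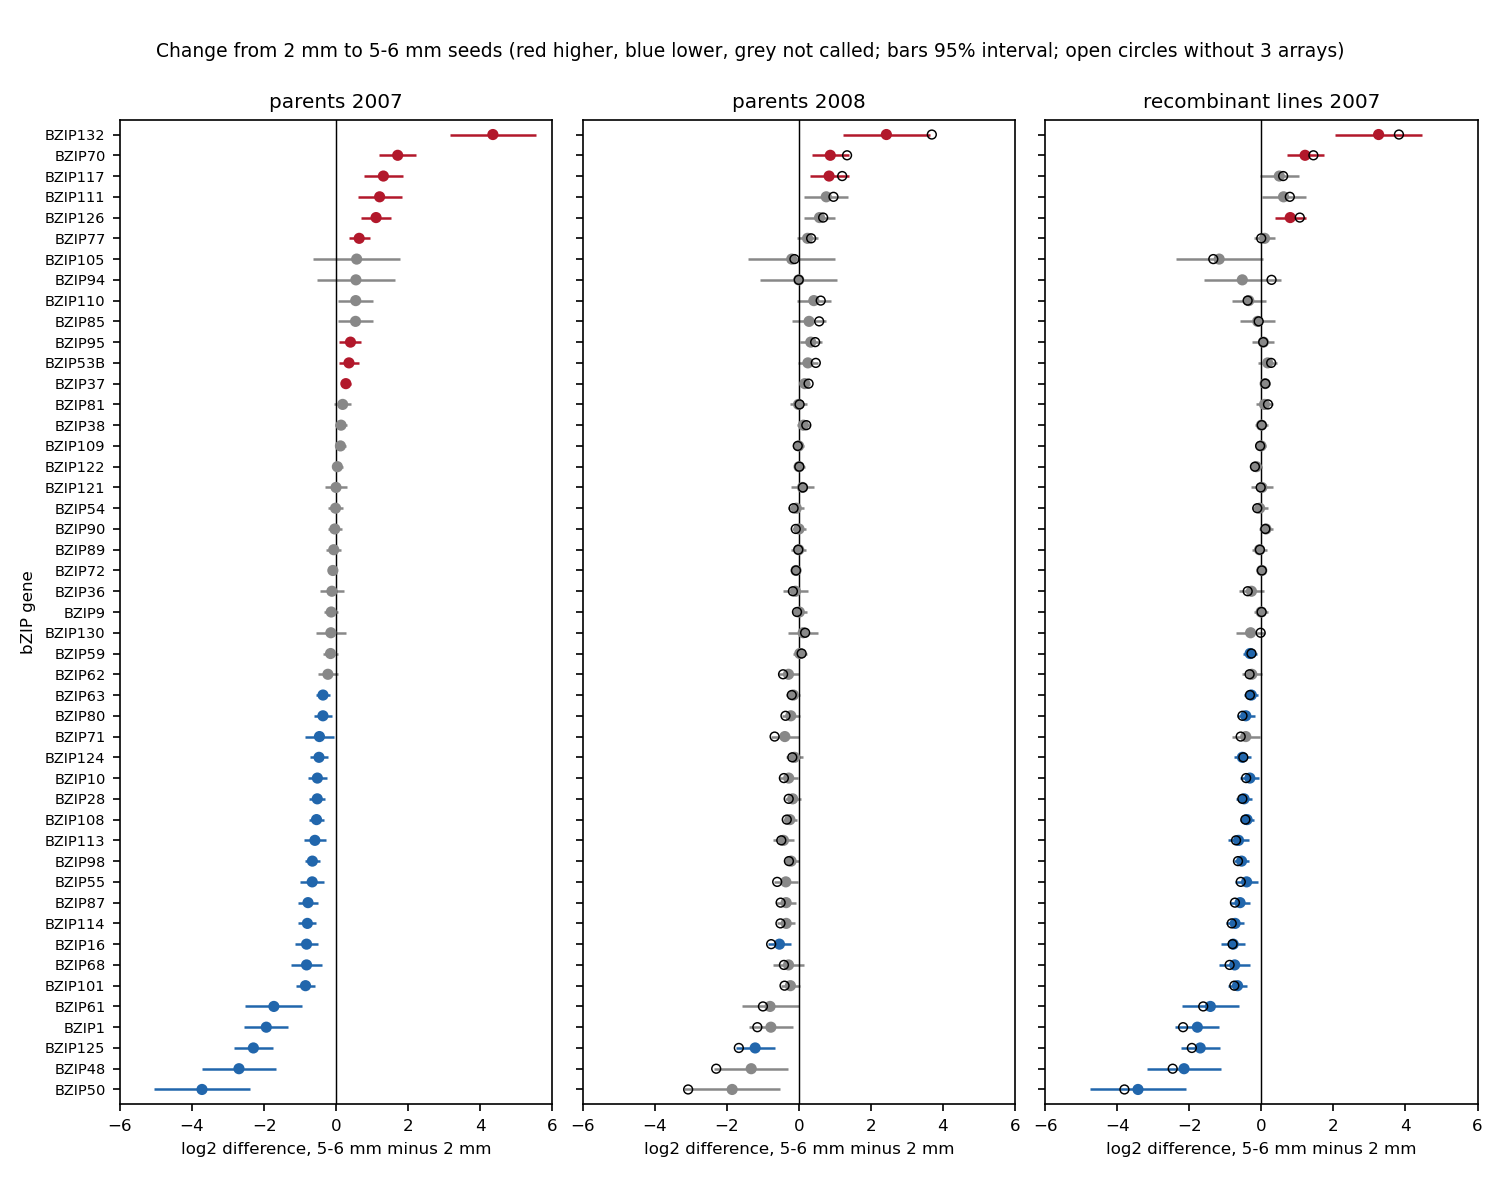
Log2 difference between 5-6 mm and 2 mm seeds for each bZIP gene in each set (points) with its 95% interval (bars), coloured by call; open circles give the value without the 3 arrays. BZIP132 has the highest value in every panel and BZIP50 the lowest, and the open circles lie farther from 0 in 2008 for both.

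Among members linked to abscisic acid, BZIP132 rose and BZIP1 fell. BZIP132, which altered abscisic acid and salt responses when expressed in transgenic Arabidopsis, had a 2007 parental signal of 6.95 to 8.29 at 2 mm (median 7.77), 8.63 to 11.81 at 3.5 mm (median 10.07) and 10.63 to 13.29 at 5-6 mm (median 12.17; 6 arrays each). All 5-6 mm arrays lay above all 2 mm arrays. The log2 difference was 4.35 (SE 0.59, adjusted p = 3.20e-07). In 2008 it was 9.24, 8.61 and 8.87 in Archer at 2 mm and 12.21, 11.97 and 11.85 at 5-6 mm. In Minsoy of 2008 the 2 mm arrays read 12.83, 8.30 and 9.02 and the 5-6 mm arrays 9.54, 12.78 and 13.10. The Archer groups were fully apart, and the Minsoy groups overlapped through their replicates 1, the arrays already named. The 2008 difference was 2.43 (SE 0.59, adjusted p = 0.0178), and 3.69 (SE 0.40, adjusted p = 4.06e-08) without the 3 arrays. Of 66 alternatives, 5 lost this 2008 call, among them a fit to the 2008 arrays alone.

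In the recombinant lines BZIP132 stood at 8.04, 8.27 and 8.24 in 2 mm seeds of the high yield line and at 12.21, 11.88 and 12.41 at 5-6 mm. The low yield line gave 11.74, 8.80 and 7.90 at 2 mm and 11.11, 12.54 and 12.35 at 5-6 mm. Only the array labelled low yield 2 mm replicate 1 reached the 5-6 mm range. BZIP132 rose there by 3.25 (SE 0.59, adjusted p = 5.46e-05), by 3.82 without the 3 arrays and by 4.08 without the 4 arrays apart in line score. It rose in both steps in 2007, by 2.13 from 2 to 3.5 mm (adjusted p = 0.00922) and by 2.22 from 3.5 to 5-6 mm (adjusted p = 0.0104).

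BZIP1, also named AREB1, belongs to the factors that bind abscisic acid response elements. Its 2007 parental signal was 6.21 to 7.36 at 2 mm (median 6.82), 4.88 to 6.02 at 3.5 mm (median 5.34) and 4.81 to 4.93 at 5-6 mm (median 4.84). The 2 mm arrays lay above all 3.5 mm and 5-6 mm arrays. All 5-6 mm values lay under the filter of 5, as did the lowest at 3.5 mm. The small spread at 5-6 mm and the size of the 2007 fall to that length therefore rest on values under the filter. BZIP1 fell by 1.94 (SE 0.30, adjusted p = 2.43e-06) in the parents of 2007 and by 1.78 (SE 0.30, adjusted p = 2.29e-05) in the recombinant lines, or by 2.17 there without the 3 arrays. In 2008 the difference was -0.77 (SE 0.30, adjusted p = 0.0857), and -1.15 and called without the 3 arrays. From 2 to 3.5 mm in 2007 it fell by 1.38 (SE 0.30, adjusted p = 0.00117), while the later step gave -0.56 and was not called. The second probe set of BZIP1 fell by 2.67 in the parents of 2007 (adjusted p = 3.46e-07).

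BZIP62 and BZIP110, whose soybean proteins changed stress tolerance in transgenic Arabidopsis, were not called between lengths in any set. BZIP62 gave -0.23, -0.29 and -0.26 in the parents of 2007, the parents of 2008 and the recombinant lines (SE 0.14 in each). BZIP110 gave 0.54, 0.42 and -0.35 (SE 0.24 in each). BZIP62 was called lower in 2008 (-0.44) when the 3 arrays were left out. In a list of other abscisic acid and stress signalling genes, 1 of 7 measured rose and 5 fell in the parents of 2007, where 22.6% of all probe sets rose and 30.8% fell. Of these, DREB1, a dehydration response factor, rose by 3.95 and the kinase gene SPK-1 fell by 3.58. All 5 genes of a list of seed regulators rose, among them LEC1-A, a central embryo regulator, by 2.86, and WRI1B, of the family that controls oil synthesis, by 3.07. Of 3 seed coat genes 2 rose and 1 fell there, and of 4 vegetative genes 1 rose and 3 fell, against the same shares of all probe sets.

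The unfolded protein response members did not move together. BZIP68, recorded in spliced and unspliced forms and related to Arabidopsis bZIP60, ranged from 12.24 to 13.00 at 2 mm (median 12.75) and from 11.22 to 12.22 at 5-6 mm (median 12.01) in the parents of 2007. Those ranges did not overlap. The fall was 0.82 (SE 0.22, adjusted p = 0.00166), and in the recombinant lines it was 0.74 (SE 0.22, adjusted p = 0.00644), or -0.64 and not called without the 4 arrays apart in line score. BZIP68 gave -0.28 in 2008 and was not called. BZIP37, related to the membrane-bound factors bZIP17 and bZIP28 of Arabidopsis, rose by 0.27 (SE 0.07, adjusted p = 0.00200) in the parents of 2007, from a median of 11.40 to 11.68. The ranges at 2 mm (11.29 to 11.59) and 5-6 mm (11.51 to 11.90) overlapped. BZIP37 gave 0.17 in 2008 and 0.11 in the recombinant lines, neither called. Its close relative BZIP38 gave 0.14, 0.13 and 0.00, none of them called. These 2 genes have probe sets named from 1 shared cluster, so cross-hybridisation between them was not tested.

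BZIP36, the soybean HY5 relative STF1A, was not called between 2 and 5-6 mm in any set. Its parental signal of 2007 was 8.74 to 8.86 at 2 mm and 8.17 to 9.02 at 5-6 mm, with medians of 8.80 and 8.72. The stage differences were -0.12, -0.09 and -0.27 in the 3 sets (SE 0.17 in each). The 1 step called was the later one of the recombinant lines, a fall of 0.39 (adjusted p = 0.0457), which was not called without the 4 arrays apart in line score. BZIP53B shares the name of the Arabidopsis maturation factor. It rose by 0.36 (SE 0.13, adjusted p = 0.0244) in the parents of 2007, with values of 12.43 to 12.67 at 2 mm and 12.73 to 13.11 at 5-6 mm, without overlap. The differences of 0.25 in 2008 and 0.18 in the recombinant lines were not called with every array. The 2008 value was 0.47, and called, without the 3 arrays. From 2 to 3.5 mm in the recombinant lines BZIP53B rose by 0.42 (SE 0.13, adjusted p = 0.0169), a call that 5 of 66 alternatives lost. It was 0.20 (adjusted p = 0.882) without the 4 recombinant 3.5 mm arrays of highest actin 3′ signal, and not called (adjusted p = 0.107) in a fit to the recombinant arrays alone.

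BZIP70 rose in every set. In the parents of 2007 it was 9.56 to 9.96 at 2 mm, 10.15 to 11.30 at 3.5 mm and 11.10 to 11.85 at 5-6 mm, so that every 5-6 mm array lay above every 2 mm array and the 3.5 mm range reached into the last. With every array kept, the 2 mm and 5-6 mm arrays overlapped in 2008 and in the recombinant lines. The rise was 1.71 (SE 0.25, adjusted p = 1.13e-06), with 0.97 in the earlier step and 0.73 in the later. In the parents of 2008 it was 0.88 (SE 0.25, adjusted p = 0.0265), and 1.34 without the 3 arrays, a 2008 call that 7 of 66 alternatives lost. In the recombinant lines it was 1.21 (SE 0.25, adjusted p = 0.000265), 1.44 without the 3 arrays and 1.58 without the 4 arrays apart in line score. A second probe set of BZIP70 rose by 1.41 in the parents of 2007 (adjusted p = 5.04e-06).

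BZIP117, BZIP111, BZIP126 and BZIP77 also rose in the parents of 2007. BZIP117 went from a median of 6.66 at 2 mm to 7.52 at 5-6 mm, a rise of 1.31 (SE 0.27, adjusted p = 0.000106), of which 1.04 came in the later step. It rose by 0.84 in 2008 (adjusted p = 0.0383), a call that 11 of 66 alternatives lost, and by 1.21 without the 3 arrays. The recombinant lines gave 0.50, or 0.87 without the 4 arrays apart in line score, neither called. BZIP111 rose by 1.21 (SE 0.30, adjusted p = 0.00103), with 3.60 to 4.63 at 2 mm and 5.11 to 6.46 at 5-6 mm. These values lay near the filter and did not overlap. BZIP126 rose by 1.11 (SE 0.21, adjusted p = 4.21e-05) in the parents of 2007, with 0.74 of it by 3.5 mm (adjusted p = 0.0110), and by 0.80 in the recombinant lines (adjusted p = 0.00271), or by 1.07 without the 3 arrays and 0.99 without the 4. BZIP77 rose by 0.64 (SE 0.14, adjusted p = 0.000303), with 0.46 of it in the later step.

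BZIP50 and BZIP48 had the largest falls in the parents of 2007 and the recombinant lines. BZIP50 read 8.11, 8.78 and 8.86 in Archer of 2007 at 2 mm, 8.43, 8.73 and 7.65 at 3.5 mm and 6.77, 5.52 and 6.11 at 5-6 mm. In Minsoy of 2007 it read 9.02, 8.70 and 8.73, then 7.21, 8.01 and 5.58, then 5.03, 2.20 and 4.21. Both lines kept 2 mm and 5-6 mm apart, and Minsoy reached lower values. Its 5-6 mm values of 2.20 and 4.21 lay under the filter of 5, so the size of the fall rests partly on values under the filter. The fall from 2 to 5-6 mm was 3.72 (SE 0.66, adjusted p = 1.52e-05), and the later step alone gave a fall of 2.63 (SE 0.66, adjusted p = 0.00742). In the recombinant lines BZIP50 fell by 3.42 (SE 0.66, adjusted p = 0.000105) and by 3.54 in the later step (adjusted p = 4.34e-05). The full fall there was 3.80 without the 3 arrays and 4.80 without the 4 arrays apart in line score. In 2008 the difference was -1.85 (adjusted p = 0.0600), and -3.07 and called without the 3 arrays. Minsoy replicate 1 of that year read 5.16 at 2 mm and 8.31 at 5-6 mm. The second probe set of BZIP50, a shared one, fell by 3.65 in the parents of 2007 (adjusted p = 8.68e-06).

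BZIP48 went from 7.13 to 7.85 at 2 mm (median 7.32) and 5.32 to 7.72 at 3.5 mm (median 7.26) to 2.73 to 6.77 at 5-6 mm (median 4.99) in the parents of 2007. All 5-6 mm arrays lay below all 2 mm arrays. The fall was 2.70 (SE 0.51, adjusted p = 3.50e-05), of which 2.30 came after 3.5 mm. BZIP48 fell by 2.15 (SE 0.51, adjusted p = 0.00101) in the recombinant lines and, with the 4 arrays apart in line score left out, fell by 3.41 there. It gave -1.32 in 2008 (adjusted p = 0.0808), or -2.29 and called without the 3 arrays. At 5-6 mm in 2007 the Minsoy arrays (4.62, 2.73 and 3.02) lay below those of Archer (6.77, 5.36 and 5.99). These Minsoy values lay under the filter of 5, so the size of this gap and of the 2007 fall rests partly on values under the filter. The change from 2 to 5-6 mm differed by 2.58 between the lines, with an adjusted p of 0.288.

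BZIP125 fell in all 3 sets. In the parents of 2007 it was 13.26 to 13.76 at 2 mm, 11.46 to 13.08 at 3.5 mm and 10.89 to 11.51 at 5-6 mm, with 2 mm apart from both later lengths. It fell by 2.30 (SE 0.27, adjusted p = 2.34e-08) there, by 1.21 (SE 0.27, adjusted p = 0.0164) in 2008 and by 1.70 (SE 0.27, adjusted p = 7.90e-06) in the recombinant lines. Without the 3 arrays these last 2 falls were 1.66 and 1.93, and 4 of 66 alternatives lost the 2008 call. The 2007 fall was spread over both steps, 1.19 and 1.11. BZIP61 fell early, from a median of 6.18 to 4.87 at 3.5 mm and 4.23 at 5-6 mm, by 1.73 in all (SE 0.39, adjusted p = 0.000352). Its groups overlapped through a 5-6 mm value of 6.20. It fell by 1.41 in the recombinant lines (adjusted p = 0.00416), or by 1.74 without the 4 arrays apart in line score. All arrays of the low yield line lay under the filter of 5 (highest 4.74), and so did the high yield line's median (3.99). The parental medians at 3.5 mm and 5-6 mm were also under it, so the size of these BZIP61 falls rests on values under the filter. BZIP16 fell by 0.82 in the parents of 2007, 0.54 in 2008 and 0.78 in the recombinant lines (SE 0.16 in each; adjusted p = 6.93e-05, 0.0317 and 0.000267). The fall of 2008, whose call 9 of 66 alternatives lost, was 0.77 without the 3 arrays, and that of the recombinant lines was 0.92 without the 4. BZIP101 fell by 0.85 in the parents of 2007 (SE 0.13, adjusted p = 1.61e-06).

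**Figure D3:**
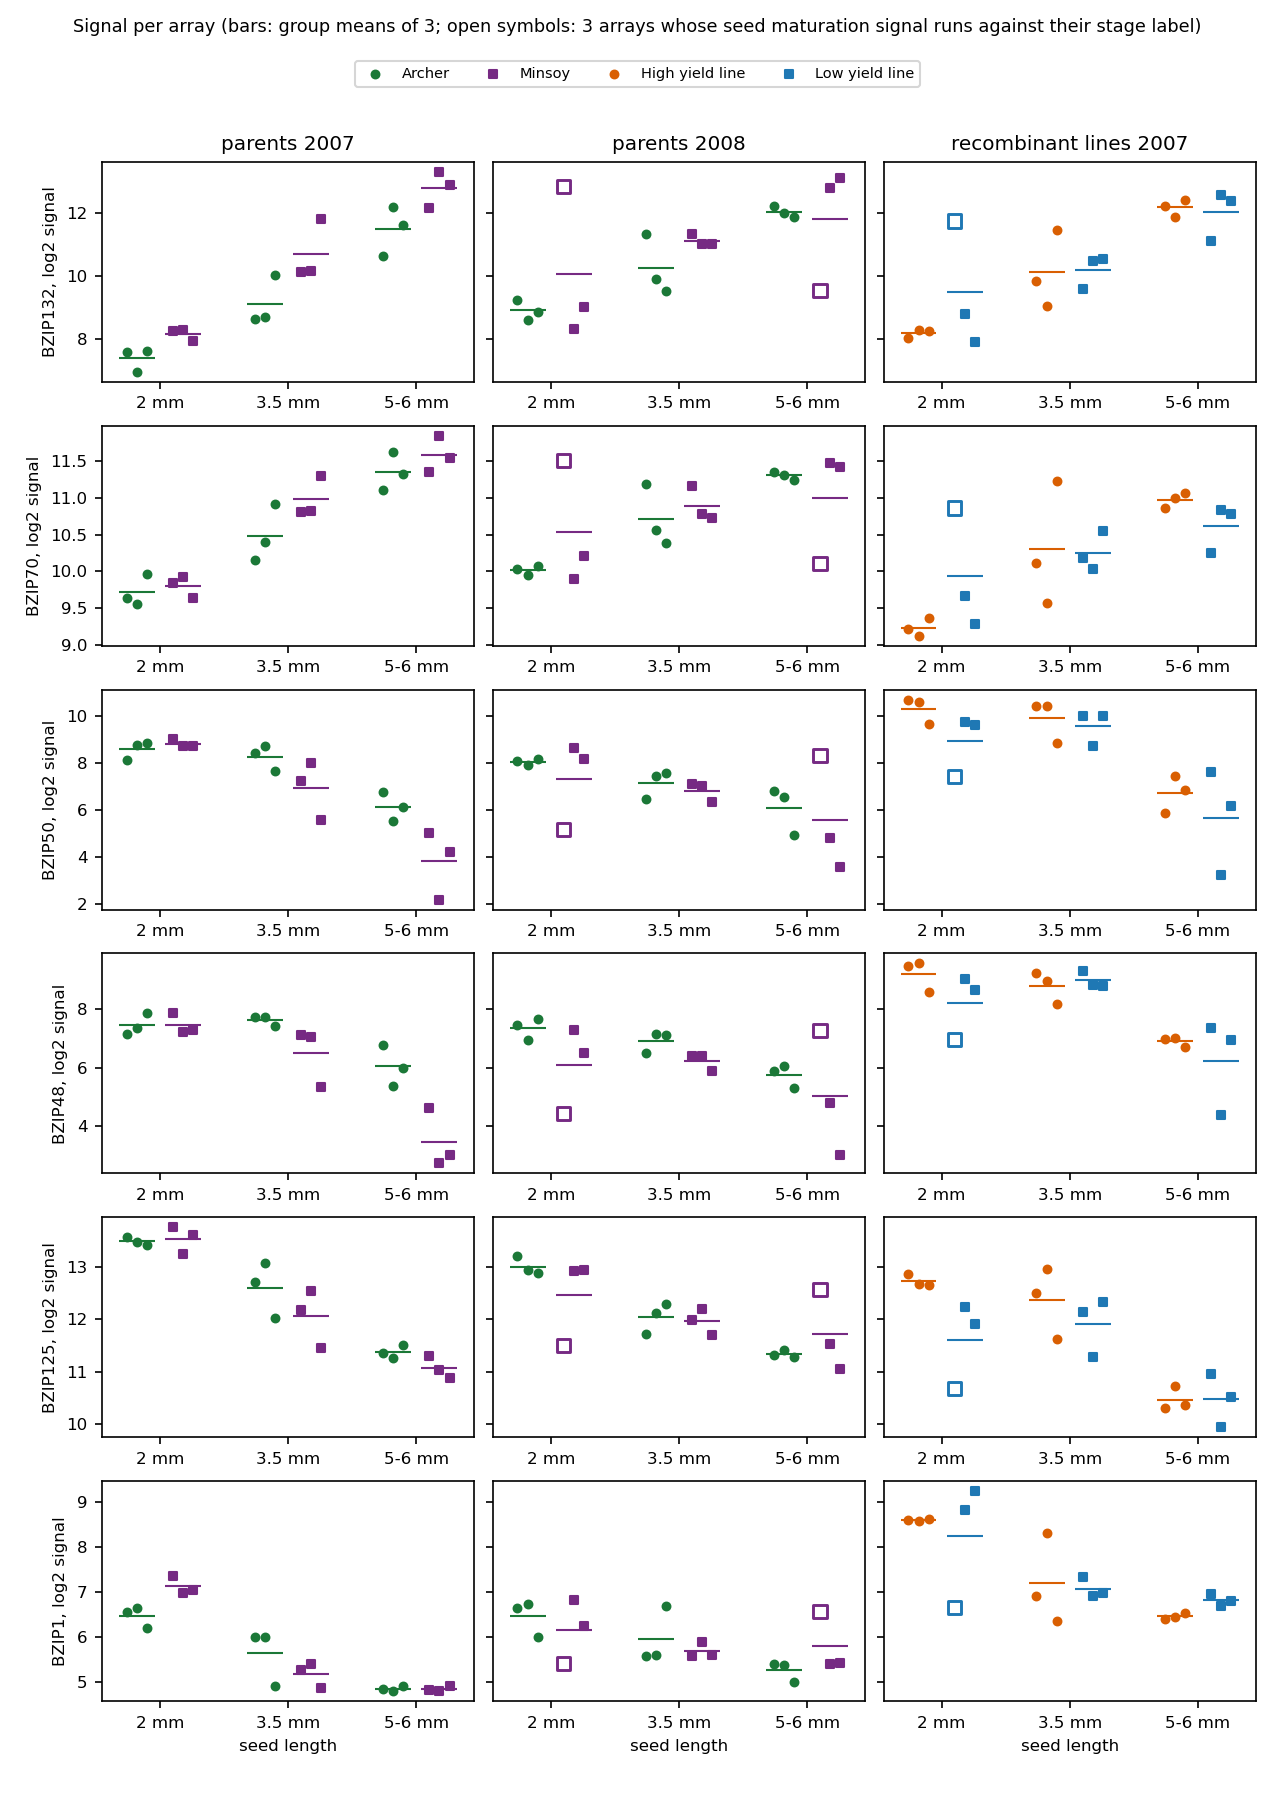
Log2 signal of 6 bZIP genes (rows) against seed length in each set (columns), 1 symbol per array with bars at the means of 3 arrays; open symbols are the 3 arrays whose maturation signal runs against their label. In the parents of 2007 BZIP132 and BZIP70 climb over both steps. BZIP50 and BZIP48 are lowest at 5-6 mm there and in the recombinant lines, and the open symbols sit at the level of another length.

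Ranges of arrays were also compared without a test. Of the bZIP genes, 7 had all 5-6 mm arrays above all 2 mm arrays in the parents of 2007 (12.3% of all probe sets did) and 14 had them all below (16.0%). With every array kept, no bZIP gene did so in 2008 in either direction (0.125% above and 0.332% below among all probe sets), and in the recombinant lines only BZIP16 lay fully below (1.19% above and 1.78% below). Leaving out the 3 arrays gave 4 genes above (13.3%) and 11 below (17.8%) in 2008, and 2 above (12.8%) and 14 below (17.5%) in the recombinant lines.

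The 2 steps were also tested apart in the parents of 2007. From 2 to 3.5 mm, 3 genes rose (9.99% of all probe sets did) and 11 fell (10.9%). From 3.5 to 5-6 mm, 6 rose (7.71%) and 8 fell (13.2%). BZIP70 and BZIP132 rose in both steps, and BZIP101 and BZIP125 fell in both. BZIP126 rose and BZIP1, BZIP61, BZIP68, BZIP87, BZIP98, BZIP108, BZIP113, BZIP114 and BZIP124 fell with a call only in the earlier step, BZIP68 with -0.76, BZIP87 with -0.59 and BZIP113 with -0.57. BZIP10, BZIP16, BZIP28, BZIP48, BZIP50 and BZIP55 fell with a call only in the later step, BZIP10 with -0.52, BZIP16 with -0.52 and BZIP55 with -0.49. Rises called only in the later step were those of BZIP37, BZIP77, BZIP85 (0.73) and BZIP117. Of the later calls, alternatives among the 66 ended those of BZIP55 (9 of them), BZIP70 (8), BZIP85 (7), BZIP77 (6) and BZIP16 (5). Whether the size of the 2 steps differed for a gene was not tested, and both steps use the same 3.5 mm arrays.

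Limma called 0 bZIP genes in either step in the parents of 2008, where 0% of all probe sets were called in either direction. At an unadjusted p under 0.05, 6 genes passed in the earlier (7.96% of all probe sets) and 9 in the later step (9.81%). Without the 3 arrays, 2 genes rose (4.23%) and 1 fell (2.68%) from 2 to 3.5 mm: BZIP132 with 1.90, BZIP70 with 0.77 and BZIP125 with -0.97. From 3.5 to 5-6 mm, 3 then rose (5.36%) and 4 fell (4.37%), among them BZIP132 with 1.80, BZIP50 with -1.84 and BZIP48 with -1.74.

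Steps of the recombinant lines were not tested against those of the parents. From 2 to 3.5 mm 10 genes rose (14.8% of all probe sets) and 2 fell (15.6%), and from 3.5 to 5-6 mm 1 rose (23.1%) and 26 fell (35.1%). The members' median was 0.15 in the earlier and -0.45 in the later step, against 0.06 and -0.12 over all probe sets. BZIP9, BZIP10, BZIP38, BZIP54, BZIP80, BZIP89, BZIP95 and BZIP121 rose and then fell, BZIP121 by 0.56 and then by 0.55, and BZIP80 by 0.41 and then by 0.84. None of these 8 genes was called higher at 3.5 mm in the parents of 2007, where 9.99% of all probe sets were. The parents of 2008 could not show such a call, as 0% of all probe sets were called in that step. The share of all probe sets that rose and then fell was not counted. BZIP1 fell in the earlier step (by 1.28, adjusted p = 0.00213), as did BZIP122 (by 0.20, adjusted p = 0.0437). The 3.5 mm arrays with replicate numbers 1 and 3 held the highest actin 3′ minus 5′ signal, and without these 4 arrays limma called 0 bZIP genes in the earlier step (0.234% of all probe sets were called, and 2 bZIP genes had an unadjusted p under 0.05) and 7 in the later (7.97%). Fitted to the recombinant arrays alone, limma called 0 in the earlier step (1.79% of all probe sets, with 14 bZIP genes at an unadjusted p under 0.05) and 23 in the later (46.0%). Without the 4 high-actin arrays BZIP122 gave 0.02.

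**Figure D4:**
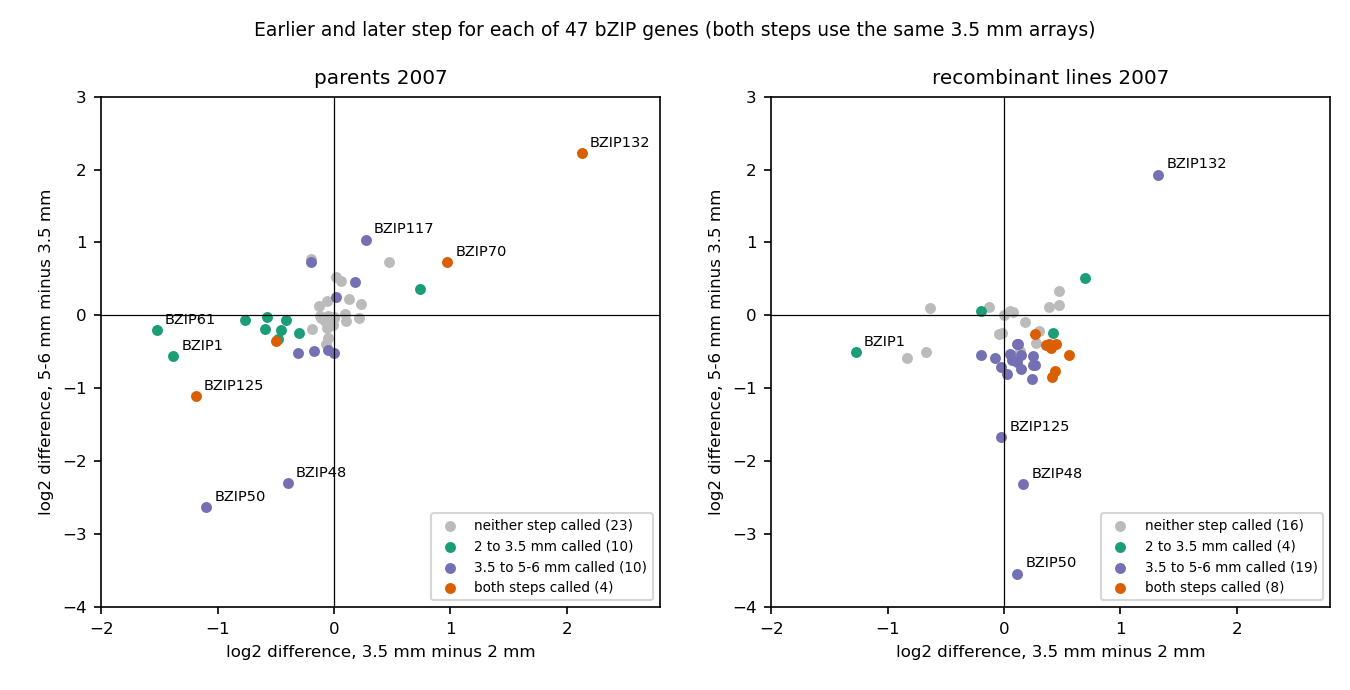
Log2 difference of the earlier step (2 to 3.5 mm, horizontal) and of the later step (3.5 to 5-6 mm, vertical) for each of the 47 genes in the parents of 2007 and the recombinant lines, coloured by which step was called, with counts in the key. BZIP132 lies high in both steps of 2007, BZIP50 and BZIP48 were called in the later step only in both panels, and the 8 recombinant genes called in both steps lie right of and below 0.

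Between lines, BZIP130 was the 1 bZIP gene called in every set, and the share of all probe sets called in every set was not counted. In 2007 the 9 Archer arrays read 8.12 to 8.65 (median 8.35) and the 9 Minsoy arrays 6.48 to 6.88 (median 6.77). In 2008 Archer read 7.51 to 8.14 (median 7.74) and Minsoy 6.37 to 6.89 (median 6.59). The varieties did not overlap in either year at any length. The Archer excess was 1.64 in 2007 (SE 0.17, adjusted p = 2.06e-09) and 1.12 in 2008 (SE 0.17, adjusted p = 8.45e-06). The annotation gives it no role, and it was called between 2 and 5-6 mm in 0 of the 3 sets, with differences of -0.15, 0.12 and -0.30.

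BZIP130 was also higher in the high yield line than in the low. At 2 mm it read 11.39, 11.34 and 11.10 in the high yield line and 10.82, 9.25 and 9.04 in the low. At 3.5 mm it read 11.52, 11.40 and 11.59 against 9.35, 8.93 and 9.87. At 5-6 mm it read 10.20, 10.70 and 11.14 against 10.19, 8.86 and 10.06. The groups were apart at every length, closest at 5-6 mm, where the high yield line's replicate 1 and the low yield line's replicates 1 and 3 were the arrays with intermediate line scores. The difference was 1.56 (SE 0.17, adjusted p = 2.20e-08), and 2.10 without the 4 arrays apart in line score. In all sets and in every alternative run, BZIP130 was called in the same direction.

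BZIP94 separated the recombinant lines by the largest amount of any bZIP gene. In the high yield line it read 8.41, 8.38 and 7.84 at 2 mm, 8.45, 7.99 and 8.05 at 3.5 mm and 5.29, 7.18 and 7.10 at 5-6 mm. In the low yield line it read 6.95, 2.11 and 2.05 at 2 mm, 2.46, 2.28 and 2.71 at 3.5 mm and 5.44, 2.28 and 5.28 at 5-6 mm. The low values lay under 3, except in the 3 arrays of that label whose line score was apart. Measured means over 9 arrays were 7.63 for the high yield line and 3.51 for the low (limma, adjusted p = 1.77e-08). That p also draws on parental arrays without spread: the standard deviation was 0 in Minsoy of 2007 and in both varieties of 2008. Over the 9 arrays of a recombinant line, lengths pooled, it was 1.01 (high) and 1.86 (low). The p is therefore no measure of the spread of these lines alone. Among the 66 alternatives, a fit to the recombinant arrays alone included, the highest adjusted p of limma's test was 0.00608. Without the 4 arrays the means were 7.92 and 2.31. Those 4 arrays were chosen by line score after the data were seen, so leaving them out tends to widen the gap by that choice. In the low yield line 6 of the 9 arrays lay under the filter of 5, and the files hold no detection calls. BZIP94 passed that filter mainly through the high yield line, where all 9 arrays reached 5. With every low array taken as no lower than 5, BZIP94 was at least 5.05-fold higher in the high yield line, and at least 7.59-fold higher without the 4 arrays. In the parents it was at or near the lowest value of its set, 1.96, in all but 1 of 36 arrays, Archer 5-6 mm replicate 3 of 2007 with 5.25. Its probe set carries the suffix of probes shared by similar transcripts. A second probe set of BZIP94, without that suffix, reached 5 in 0 arrays (highest 4.79) and was not tested. The signal described here may therefore belong to more than 1 gene. Values at that floor have no order, and because the sets were normalised apart, the parents and the recombinant lines were not compared.

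BZIP16 was higher in Archer in 2007 only. In 2007 it read 11.30, 11.39 and 11.15 in Archer and 10.63, 10.41 and 10.47 in Minsoy at 2 mm, and 10.75, 10.26 and 10.43 against 9.54, 10.25 and 9.19 at 5-6 mm. Archer lay above Minsoy at both lengths, narrowly at 5-6 mm. In 2008 the 9 arrays ranged from 9.40 to 10.24 in Archer and from 9.13 to 10.29 in Minsoy and overlapped widely. The difference was 0.80 (SE 0.13, adjusted p = 4.16e-05) in 2007 and 0.05 in 2008. By limma's test of the difference, the line difference was larger in 2007 by 0.75 (SE 0.19, adjusted p = 0.0262), the 1 bZIP gene called in that test (0.974% of all probe sets were called higher and 0.495% lower). BZIP16 was also higher in the high yield line, by 0.44 (SE 0.13, adjusted p = 0.0421), or 0.62 without the 4 arrays apart in line score. That call of 0.44 was lost in 17 of 66 alternatives, among them the replicate block, median centring, a fit to the recombinant arrays alone and the removal of the 4 high-actin arrays.

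**Figure D5:**
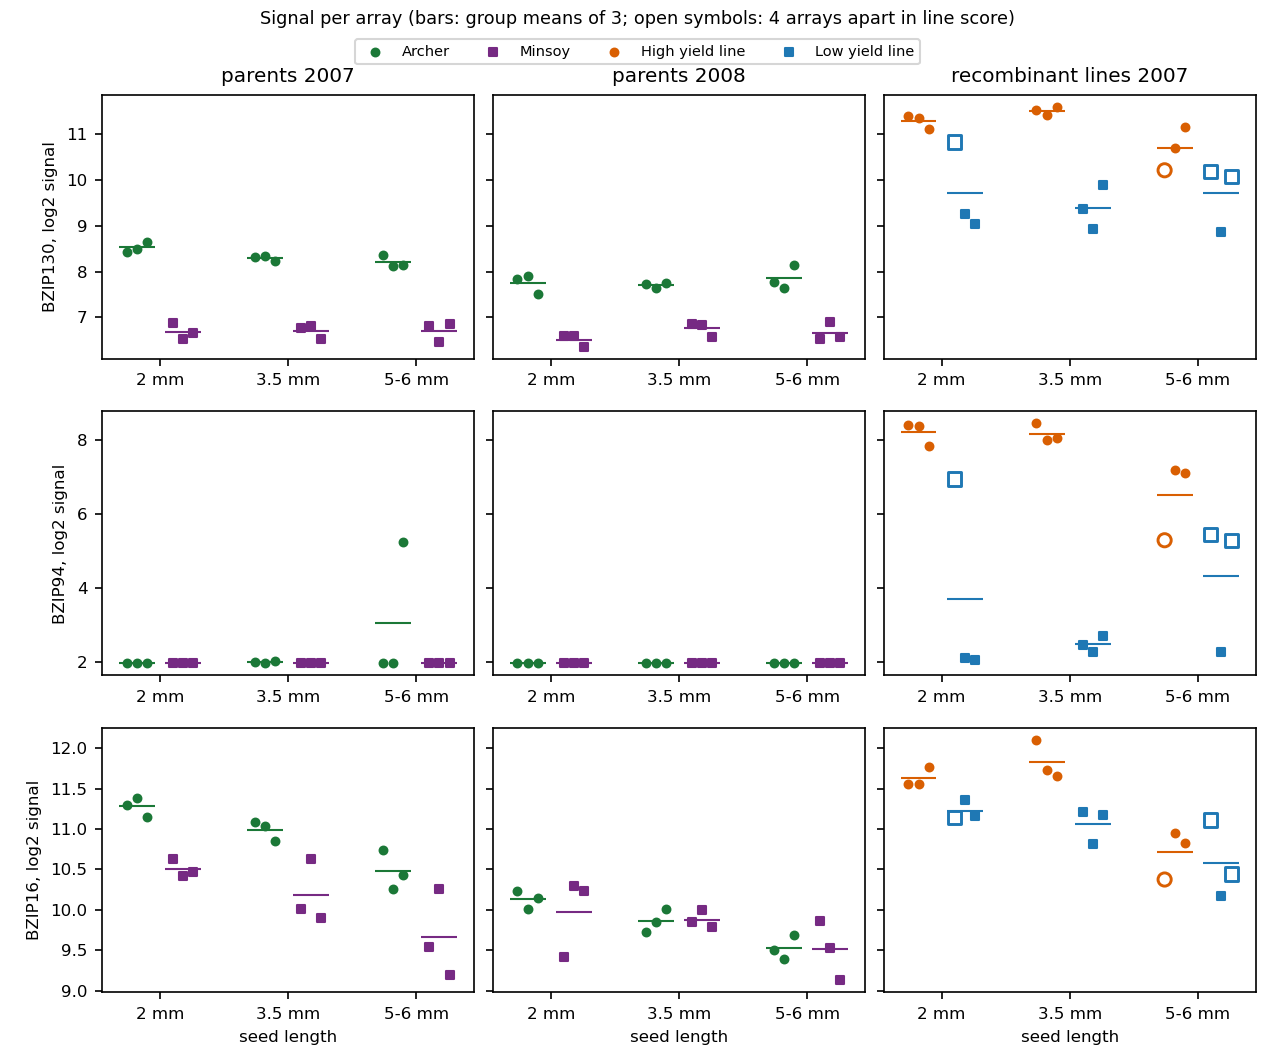
Log2 signal of BZIP130, BZIP94 and BZIP16 (rows) against seed length in each set (columns), 1 symbol per array with bars at the means of 3 arrays; open symbols are the 4 recombinant arrays apart in line score. Archer lies above Minsoy for BZIP130 in both years, BZIP94 is at the floor in nearly all parental arrays, and for BZIP16 the varieties are apart in 2007 and mixed in 2008.

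Few other bZIP genes were called between lines. Of 47, 2 were higher in Archer in 2007 (5.06% of all probe sets) and 1 was lower (4.03%). The lower gene was BZIP110, with -0.59 (SE 0.19, adjusted p = 0.0484), a call that 39 of 66 alternatives lost, the replicate block among them. At 5-6 mm it read 8.10, 8.20 and 8.94 in Archer and 9.51, 9.53 and 10.57 in Minsoy, while at 2 mm the varieties overlapped. In 2008 BZIP130 alone was higher (1.31%) and 0 were lower (1.64%), with 4 genes at an unadjusted p under 0.05 (12.2% of all probe sets were). Between the recombinant lines 5 were higher in the high yield line (3.31%) and 0 lower (2.05%), and without the 4 arrays 4 were higher (3.20%) and 0 lower (2.31%). The other 2 of these 5 were BZIP124 (0.38, SE 0.10, adjusted p = 0.0111) and BZIP59 (0.28, SE 0.08, adjusted p = 0.0275). BZIP124 ranged from 13.00 to 14.19 in the high and 12.77 to 13.61 in the low yield line, and BZIP59 from 12.54 to 13.41 and 12.27 to 13.35, so both pairs of ranges overlapped. BZIP59 was not called without the 4 arrays, and 11 of 66 alternatives lost its call. The call of BZIP124 was lost in 1 of 66, the fit to the recombinant arrays alone.

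Whether the change from 2 to 5-6 mm itself differed between lines was tested in each set, and 0 bZIP genes were called by limma. The shares of all probe sets called higher and lower were 0.0529% and 0.0831% in the parents of 2007, 0% and 0% in the parents of 2008, and 0.536% and 0.642% in the recombinant lines. At an unadjusted p under 0.05, 5, 1 and 10 bZIP genes passed, with 12.1%, 6.18% and 15.0% of all probe sets. BZIP94 was called in the recombinant lines without the 3 arrays, with a change lower by 3.94 in the high yield line, and was not called (-1.27, adjusted p = 0.728) without the 4 arrays apart in line score. The change also was called for 0 bZIP genes between 2007 and 2008 in the parents (0.993% and 1.28% of all probe sets were), with 11 at an unadjusted p under 0.05 (19.5% of all probe sets were).

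More than 1 probe set passed for 17 of the genes. In 2007, 11 of the 12 further probe sets of genes called between 2 and 5-6 mm in the parents had the same sign, and 9 of them were called. The exception was BZIP108, with -0.55 for the chosen probe set and 0.15 for the other. That other probe set shares its cluster name with BZIP109, which gave 0.12. From 3.5 to 5-6 mm in the recombinant lines 10 of 12 further probe sets had the same sign and 8 of them were called. There the other probe set of BZIP108 was called the opposite way, at 1.12 (adjusted p = 0.000239) against -0.55 for the chosen one, and that of BZIP55 gave 0.23 against -0.68. Of the chosen probe sets, 8 carry the suffix of probes shared by similar transcripts, those of BZIP38 and BZIP53B among them, so a signal there may belong to more than 1 gene. The genes nearest the filter were BZIP61 and BZIP90, with 10 arrays at 5 or more each, and BZIP72 and BZIP94, with 13. The highest value among the genes outside it was 4.95 (BZIP112), followed by 4.85 for BZIP46 and BZIP83, and no array of these 11 genes reached 5.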

How the data were processed

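RNA from developing seeds was hybridised to Affymetrix soybean arrays, 54 in all. The values are log2 signals as the authors deposited them, made with GCRMA per the submitters' processing notes, whose version is not given in the sources used here. GCRMA corrects background with probe sequence and quantile-normalises the arrays run together. The lowest values (1.96, 1.96 and -1.56) and the array medians (7.20 to 7.30, 7.22 to 7.32 and 7.51 to 7.74) of the parents of 2007, the parents of 2008 and the recombinant lines show that the 3 sets were normalised apart. The number of arrays limits the precision.

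Of 37744 probe sets, 126 Affymetrix and 48 ribosomal controls were left out, and 26482 reached 5 in 3 arrays. The annotation names 1 gene for 8677 probe sets, several for 370 and none for 28523. A single model with a mean for each of 18 groups was fitted to all 54 arrays with limma 3.58.1 in R 4.3.3, as 17 comparisons with eBayes and Benjamini-Hochberg adjustment over all tested probe sets at 0.05, and was tested on simulated data. Intervals are at 95% and use the t quantile of the moderated degrees of freedom.

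The members and gene lists were chosen with earlier results of these data known. Genes were named by role or as those with the largest called differences in each comparison. Parts of that naming rule on the highest and lowest mean signal and on protein identity were not applied. Of the members, 45 were found in RefSeq. No 2 arrays were duplicates (highest correlation 0.9974).

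Replicate numbers in 2008 mark plantings, per the labels. Deviations of same-numbered arrays correlated at -0.47 to 0.55 in the parents of 2007 (6 of 9 pairs over 0.1), -0.25 to 0.48 in 2008 (2 of 9) and -0.22 to 0.51 in the recombinant lines (5 of 9). Alternatives were quantile normalisation, median centring, no filter, a stricter filter of 7, array weights, trended and robust eBayes, a replicate block, a fit per set, another probe set per gene, leaving out each array, and, added after seeing the data, leaving out the 3 arrays against their stage label, the 4 apart in line score and the 4 of highest actin 3′ signal. The lower bound for BZIP94 was also added after seeing the data.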

Additional observations from a re-analysis of the deposited data

Results flagged for a closer look

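The difference between Archer and Minsoy in BZIP16 changed between years. It was larger in 2007 than in 2008 by 0.75 on the log2 scale, by limma's test of the difference itself (SE 0.19, adjusted p = 0.0262). Mean signals over the 9 arrays of a variety were 10.92 in Archer and 10.12 in Minsoy in 2007, and 9.84 and 9.79 in 2008. Over 66 alternatives the difference lay between 0.67 and 0.90, and 6 of them ended the call. The years were grown, sampled and normalised apart, so year, field layout and array set cannot be told apart.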

How the results depend on the processing

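Of 72 results on named bZIP genes, 43 kept their call in every alternative run for them, which was all 66 for 39 of them and 65 for the other 4 (on BZIP61 and BZIP111), and 1 changed sign, BZIP122 from 2 to 3.5 mm in the recombinant lines, at 0.021 without the 4 arrays of high actin 3′ signal. Counts of bZIP genes called follow without shares of all probe sets, so no shift is read as bZIP-specific. The full change is that from 2 to 5-6 mm, and the cause of a shift was not tested unless fewer arrays are its construction. Quantile normalisation gave 1 for the stage-by-line difference of the recombinant lines and 1 for the parental stage change between years. Median centring gave 3 between the recombinant lines and 0 for the line difference between years. Array weights, whose estimation stopped before its tolerance, raised most counts. They gave 28 for 3.5 to 5-6 mm in the parents of 2007, 33, 15 and 21 for the full, earlier and later change of 2008, and 35 and 29 for the full and earlier change of the recombinant lines. Between lines they gave 9 in 2007, 13 in 2008 and 21 in the recombinant lines, with 3 and 12 for the stage-by-line differences of the parents of 2007 and the recombinant lines, and 8 and 10 for the line and stage differences between years. A fit to the arrays of each set alone gave 1 for the full change of 2008, 0 for the earlier step and 2 for the line difference of the recombinant lines, and 2 and 4 for the line and stage differences between years. The probe set with the lowest mean gave 2 between the parents of 2008 and 1 for the recombinant stage-by-line difference.

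Without the 3 arrays against their stage label the 2008 counts were 24, 3 and 7 for the full, earlier and later change, with 6 between the parents of 2007 and 1 for the recombinant stage-by-line difference. Without the 4 arrays apart in line score they were 10 for the full change of 2008, and 2 and 1 for the line and stage differences between years. Without the 4 arrays of high actin 3′ signal they were 9 for the full change of 2008, 0 and 7 for the earlier and later step and 10 for the line difference of the recombinant lines, 3 for their stage-by-line difference, 2 between the parents of 2008 and 2 for the stage difference between years.

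With the replicate number as a block, 29 were called between 2 and 5-6 mm in the parents of 2007 and 13 in the later step (14 without it). Between the parents of 2007 it gave 2 (3 without, BZIP110 lost), and between the recombinant lines 4 (5 without, BZIP16 lost). The block changed no other count.

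Leaving out 1 array at a time gave, for the full, earlier and later change, 27 to 31, 13 to 14 and 8 to 17 in the parents of 2007, 0 to 18, 0 to 1 and 0 to 1 in 2008, and 20 to 25, 6 to 17 and 23 to 31 in the recombinant lines. The line difference gave 2 to 7, 1 to 2 and 3 to 7, the stage-by-line difference 0 to 3, 0 to 0 and 0 to 2, and the differences between years 0 to 2 for lines and 0 to 4 for stages. The full change of 2008 rested most on single arrays: 18 were called without Minsoy 2 mm replicate 1, 15 without Minsoy 5-6 mm replicate 1, 11 without low yield 2 mm replicate 1, 8 without low yield 3.5 mm replicate 2, and 0 without any of the Minsoy 2 mm or 5-6 mm replicates 2 and 3. It was 2 without Archer 2 mm or 5-6 mm replicate 1 and 3 without Archer 2 mm replicate 3 or 5-6 mm replicate 2. The later step of 2007 gave 8 or 9 without any of replicates 1 and 2 at 3.5 mm or 2 and 3 at 5-6 mm of either variety. The earlier recombinant step gave 7 without high yield 3.5 mm replicate 3 and 6 without low yield 3.5 mm replicate 3. Between the parents of 2007, 5 to 7 were called without Minsoy 3.5 mm replicates 1 or 2, 5-6 mm replicates 1 or 2, or the 2008 Minsoy 5-6 mm replicates 1 or 3. Between the recombinant lines 3 were called without high yield 2 mm replicates 1 or 2, 5-6 mm replicate 3, low yield 2 mm replicate 3 or 3.5 mm replicate 2. The earlier and the later step of 2008 gave 1 without Minsoy 2 mm and 5-6 mm replicate 1, respectively, and the latter array also gave 2 between the parents of 2008. The stage-by-line count of 2007 was 3 without Minsoy 5-6 mm replicate 1. That of the recombinant lines was 2 without high yield 2 mm replicate 3, and 1 without low yield 2 mm replicate 1, low yield 3.5 mm replicates 2 or 3, or the 2007 Minsoy 2 mm replicates 2 or 3 or 5-6 mm replicate 3. The stage difference between years gave 4 without Minsoy 5-6 mm replicate 3 of 2008, 3 without low yield 2 mm replicate 1, and 1 without Archer 2 mm replicate 1 or Minsoy 2 mm replicate 2 of 2008 or low yield 3.5 mm replicates 2 or 3. In the line difference between years 2 genes were called without Minsoy 5-6 mm replicate 2 of 2007, and BZIP16 was no longer called without Minsoy 3.5 mm replicate 3 or Archer 5-6 mm replicate 1 of 2007, or Minsoy 2 mm replicates 2 or 3 or 5-6 mm replicate 1 of 2008. The stricter filter left BZIP61 and BZIP111 untested. Values near each set's floor, as for BZIP94, limit what could be measured.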
